A study of Mus musculus with 6 samples.

Results

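Imprinted genes, which are expressed from the maternal or the paternal copy in the tissues where they are imprinted, were followed in RNA sequencing libraries of full-grown mouse oocytes. The set was a list of 36 gene symbols chosen by name from 18 known imprinted domains or single loci, and all 36 were among the 55291 genes of the count table. By textbook assignment 15 of them are expressed from the maternal copy, 20 from the paternal copy, and Gnas from either copy according to the transcript. The oocytes came from animals labelled WT or KO, and the study concerns deletion of Pan2, which encodes the catalytic subunit of a deadenylase that shortens poly(A) tails. The labels name 6 samples, 3 WT and 3 KO, all of the same cell type. The series' design text speaks of zygotes and 2-cell embryos instead; the sample labels were followed, and the oocyte markers given below do not settle this, since early embryos still carry maternal RNA. The labels do not give the strain, age, deleted exons, Cre driver or number of animals, and p-values therefore refer to the spread among these libraries alone, of which a part may be technical. The comparison was of WT 1 with KO 1, KO 2 and KO 3. The counts of WT 2 did not follow the gene models and WT 3 was not analysed here.

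Genomic imprinting rests on DNA methylation that is placed in the germ line and kept after fertilization. During oocyte growth DNMT3A and its cofactor DNMT3L methylate control regions that often lie at the promoters of paternally expressed genes, such as Peg3, Mest, Plagl1 and Snrpn, or of long non-coding RNAs that silence their neighbours in cis, such as Airn and Kcnq1ot1. The control regions of H19 and Igf2, of Dlk1, Meg3 and Rian, of Rasgrf1 and of Zdbf2 are methylated in sperm instead. All chromosomes that an oocyte passes on become maternal copies in the offspring, so the 2 classes do not stand for parental copies within the oocyte. They are named here for what they do in the offspring. The labels do not state an aim for imprinted genes; the values describe how their transcripts stood in these cells and whether they differed with Pan2 loss.

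The promoters of the genes that carry most of the results are shown here as the 250 bases before and 50 bases after the annotated start, from RefSeq on GRCm38.p6, the assembly that mm10 names. Capitals mark TGCCGC or its reverse complement GCGGCA, the core that the imprint-keeping protein ZFP57 binds when it is methylated. Mest has an upstream and a downstream promoter with different sequence, Peg3 and Plagl1 are paternally expressed, and Igf2r and Airn are opposed partners of a shared domain.
Mest, upstream promoter, chr6:30733256-30733555, plus strand: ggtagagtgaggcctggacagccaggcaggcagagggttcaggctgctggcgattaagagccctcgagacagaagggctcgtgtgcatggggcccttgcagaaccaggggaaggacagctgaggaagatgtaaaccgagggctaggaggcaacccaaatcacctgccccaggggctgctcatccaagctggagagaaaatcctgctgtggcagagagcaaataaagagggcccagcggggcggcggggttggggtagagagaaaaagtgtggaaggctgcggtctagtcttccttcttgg
Mest, downstream promoter, chr6:30737800-30738099, plus strand: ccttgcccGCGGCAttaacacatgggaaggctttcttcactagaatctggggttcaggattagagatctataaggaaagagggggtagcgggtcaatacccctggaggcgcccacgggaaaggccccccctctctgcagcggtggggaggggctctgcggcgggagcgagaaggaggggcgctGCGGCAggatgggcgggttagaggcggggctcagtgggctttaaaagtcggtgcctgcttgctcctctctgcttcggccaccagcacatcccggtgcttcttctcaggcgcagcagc
Plagl1, chr10:13090582-13090881, plus strand: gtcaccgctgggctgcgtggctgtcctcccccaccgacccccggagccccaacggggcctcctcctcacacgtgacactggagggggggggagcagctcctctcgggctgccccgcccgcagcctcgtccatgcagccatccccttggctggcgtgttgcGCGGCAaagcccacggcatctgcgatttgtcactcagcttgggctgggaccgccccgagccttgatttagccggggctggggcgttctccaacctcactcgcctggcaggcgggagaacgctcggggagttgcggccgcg
Peg3, chr7:6730370-6730669, minus strand: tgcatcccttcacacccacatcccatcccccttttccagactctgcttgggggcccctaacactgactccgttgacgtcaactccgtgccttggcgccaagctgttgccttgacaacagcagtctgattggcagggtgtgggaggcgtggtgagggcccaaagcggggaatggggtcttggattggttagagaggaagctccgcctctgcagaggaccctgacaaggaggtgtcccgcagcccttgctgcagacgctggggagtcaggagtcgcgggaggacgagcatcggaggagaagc
Igf2r, chr17:12769657-12769956, minus strand: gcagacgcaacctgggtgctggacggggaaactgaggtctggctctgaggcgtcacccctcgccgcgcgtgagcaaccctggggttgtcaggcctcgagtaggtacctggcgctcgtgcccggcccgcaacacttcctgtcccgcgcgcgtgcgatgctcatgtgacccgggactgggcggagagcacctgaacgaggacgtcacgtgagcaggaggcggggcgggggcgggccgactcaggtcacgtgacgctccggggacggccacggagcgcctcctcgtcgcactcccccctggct
Airn, chr17:12741061-12741360, plus strand: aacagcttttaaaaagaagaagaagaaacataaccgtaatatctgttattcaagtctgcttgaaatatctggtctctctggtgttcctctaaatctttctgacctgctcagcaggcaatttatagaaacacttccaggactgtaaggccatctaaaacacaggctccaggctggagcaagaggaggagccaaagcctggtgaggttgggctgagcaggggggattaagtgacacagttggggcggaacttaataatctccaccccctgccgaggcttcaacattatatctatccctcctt

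In these windows the downstream Mest promoter held the motif 2 times and 17 CpG sites, whereas the upstream one held no copy and 8 CpG sites. Plagl1 held 1 copy and 26 CpG sites. Peg3, Igf2r and Airn held no copy, with 13, 34 and 3 CpG sites. Of the 36 genes, 30 matched the promoter table, with 45 promoters. The motif was found on either strand in 8 of 26 promoters of paternally expressed genes (30.8%), in 5 of 15 of maternally expressed genes (33.3%) and in 11.6% of all 32851 promoters. Windows of a gene can overlap, and Mest has a further one offset by 3 bases from the downstream promoter; with overlapping windows of a gene counted once the shares were 7 of 25 (28%), 5 of 15 and 11.5%. The median number of CpG sites was 12, 20 and 7 in these groups, so the imprinted promoters were also richer in CpG. A match of letters is not a bound site, and its absence says only that these letters are not in this window.

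Total counts were 23485093 in WT 1, with 12038990, 23359636 and 26770521 in the KO libraries, so 3 counts, the floor used for a gene at 0, corresponded to 0.112 to 0.249 CPM (counts scaled per library to a common total). These libraries correlated with each other at 0.975 to 0.994 across 30978 genes, on log2 CPM, and WT 2 with them at 0.202 to 0.208. All 12 oocyte markers stood above 1 TPM in WT 1; TPM is the count per exon length, scaled to the same total in each library, and is the scale of the levels below unless another is named. Pan2 stood at 22.8 TPM in WT 1 and at 13.2, 3.50 and 10.5 TPM in KO 1, KO 2 and KO 3, and its log2 fold change of -1.37 (SE 0.53) missed the threshold of 0.05 in edgeR (adjusted p = 0.301). Without KO 1 it was -1.74 and Pan2 passed (adjusted p = 1.42e-14). Granulosa and cumulus markers summed to 31.3 TPM in WT 1 and 45.2 to 49.96 TPM in the KO libraries, with 4 of 16 at 1 TPM or more in WT 1. The lowest p among them belonged to Cyp19a1, the aromatase gene, at 7.67 TPM in WT 1 and 21.8 ± 3.14 TPM (SD, n = 3) among the KO libraries, and to Cyp11a1, at 0.238 and 0.628 ± 0.0911 TPM. Of the 9 granulosa and cumulus markers tested, 8 had a log2 fold change above 0, with a median of 0.84. Cyp19a1 alone, at 19.5, 25.4 and 20.4 TPM in KO 1, KO 2 and KO 3, made up much of the difference in the summed level. Of these markers Amh and Amhr2 had 0 counts in WT 1, and Npr2 had 0 counts in all 4. Others of low count went the other way. Foxl2 had 6 counts in WT 1 and 2, 0 and 0 in the KO libraries, Fst 6 and 0 in each, and Hsd17b1 12 and 2, 3 and 2. Theca, stromal and endothelial markers summed to 7.58 TPM in WT 1 and 12.5 to 13.1 TPM in the KO libraries (lowest p for Pecam1 and Kdr, with 4 of 12 at 0 in all 4), and blood markers to 3.08 and 3.41 to 9.79 TPM (Cd68 and Alas2, with 5 of 8 at 0). No marker of any list passed in edgeR, those of oocytes included, among which Figla and Zp1 had the lowest p. Without KO 1, Cyp19a1, Pecam1, Figla and Zp1 passed, Figla lower and the others higher in KO 2 and KO 3 than in WT 1. KO 2 and KO 3 stood apart from WT 1 and KO 1 in the share of counts from ribosomal protein genes, which was 2.47% and 2.69% in the latter pair and 1.57% and 1.54% in the former. The part of these differences in the results below was not tested. In such bulk libraries less RNA per cell and fewer cells that hold it cannot be told apart.

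Maternally expressed genes were present at low to moderate levels in WT oocytes, and 11 of the 15 reached 1 TPM in WT 1. The highest was Commd1, a gene of copper handling and endosomal sorting, at 50.4 TPM in WT 1 and 57.7, 41.8 and 41.4 TPM in KO 1, KO 2 and KO 3. Its WT level was above that of 88.0% of the genes with a count, and lay within the range of the KO libraries. Commd1 is imprinted in few tissues and shares 412 exon bases with Zrsr1 on the opposite strand. The sources used here do not state whether counting used strand, and reads of that stretch are therefore uncertain.

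In the Kcnq1 domain all 5 maternally expressed members stood at 1 TPM or more in WT 1. Phlda2, which restrains growth of the placenta, stood at 37.0 TPM in WT 1 and at 64.7, 46.6 and 37.2 TPM in the KO libraries, in order of their numbers. Tssc4, a factor of spliceosome assembly, stood at 24.1 TPM and at 22.9, 16.9 and 16.1 TPM. WT 1 was lowest for Phlda2, by a narrow margin against KO 3, and highest for Tssc4, close to KO 1. Kcnq1, a potassium channel gene, stood at 11.3 TPM in WT 1 and 19.7, 19.5 and 21.1 TPM in the KO libraries, which lay close together and above WT 1. WT 1 lay below all KO libraries for 29.1% of all genes tested, on CPM scaled by TMM factors. Cdkn1c, the gene of the cell-cycle inhibitor p57, had 8.53 TPM in WT 1 and 8.62, 4.69 and 4.51 TPM in KO 1, KO 2 and KO 3. It shares 30.65% of its exon bases with Gm44732 on the opposite strand, so reads there are uncertain. Ascl2, a trophoblast transcription factor gene, was at 2.12 TPM in WT 1 and at 1.01, 0.616 and 0.121 TPM, from 33, 8, 9 and 2 counts. KO 2 and KO 3 were thus lowest for Cdkn1c and Ascl2, and for Cdkn1c WT 1 and KO 1 nearly coincided.

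Other maternally expressed genes with clear levels were a growth receptor, a ubiquitin ligase and an adaptor. Igf2r, whose protein takes up and degrades the growth factor IGF2, stood at 16.7 TPM in WT 1 and 11.2, 9.40 and 10.5 TPM in the KO libraries. Ube3a, a ubiquitin ligase gene that is imprinted in neurons, stood at 11.7 TPM and at 9.11, 7.16 and 6.60 TPM. It shares exon bases with 3 genes on the opposite strand, each over 8.71% to 9.82% of its exons, so reads there are uncertain. Igf2r and Ube3a were both highest in WT 1, with no overlap with the KO libraries. WT 1 lay above all KO libraries for 29.2% of all genes tested, on CPM scaled by TMM factors. Copg2, a COPI coat gene, was at 6.45 TPM in WT 1 and 9.29 ± 1.65 TPM (SD, n = 3) among the KO libraries, and Grb10, which dampens insulin receptor signalling, at 6.08 TPM in WT 1 and 4.14 ± 0.464 TPM. Slc22a3, an organic cation transporter gene, lay at the limit with 1.02 TPM in WT 1 and 1.87 ± 0.269 TPM. Below it were the long non-coding RNAs Meg3 (0.547 TPM in WT 1) and Rian (0.0260 TPM), the zinc finger gene Zim1 (0.296 TPM) and H19, with 0 counts in all 4 libraries.

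Of the 20 paternally expressed genes, 7 reached 1 TPM in WT 1, and 6 reached it in all 4 libraries. Mest, a gene of a hydrolase-like protein and a classical imprinted marker of mesoderm, was the highest at 38.0 TPM in WT 1 and 29.5, 97.0 and 113 TPM in KO 1, KO 2 and KO 3. KO 2 and KO 3 were high and WT 1 and KO 1 low, so the difference did not follow the genotype in every library. The counts of Mest cover the upstream and the downstream Mest promoter together, and 912 of the 3945 exon bases are shared with Copg2 on the opposite strand. Plagl1, a growth-restraining zinc finger transcription factor gene, went the other way, at 22.4 TPM in WT 1 and 27.1, 14.3 and 16.9 TPM in the KO libraries.

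Inpp5f, an inositol phosphatase gene of which a single transcript is imprinted, was the steadiest of these genes at 9.85 TPM in WT 1 and 9.97, 10.2 and 10.5 TPM in the KO libraries. Snrpn, a small nuclear ribonucleoprotein gene, stood at 8.83 TPM and at 6.53, 10.04 and 15.4 TPM, and WT 1 lay inside the KO range. It shares exons with Snurf and Gm38393 on the same strand, so its counts are uncertain. Peg3, a zinc finger gene, was at 6.13 TPM in WT 1 and at 2.21, 1.68 and 2.78 TPM in KO 1, KO 2 and KO 3, all well below WT 1. Impact, an inhibitor of the eIF2 alpha kinase GCN2, was at 3.25 TPM and 3.93 ± 2.16 TPM (SD, n = 3), and the splicing factor retrogene Zrsr1 at 1.39 and 0.848 ± 0.253 TPM. Airn, the RNA that silences Igf2r in cis, lay just outside the limit with 0.833 TPM in WT 1 and 1.92 ± 0.279 TPM in KO oocytes.

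The remaining paternally expressed genes were near or at 0. Dlk1, a Notch-like ligand gene, and Mkrn3, a makorin gene, had 0 counts in all 4 libraries. Igf2, the fetal growth factor, had 1 count in KO 3 and 0 in the others, Magel2 had 2 counts in KO 2 alone, and Ndn, like Magel2 a MAGE family gene, had 4 in KO 2 and 2 in KO 3. In the Snrpn domain Ndn, Magel2 and Mkrn3 were therefore at or near the floor beside a clearly detected Snrpn and Ube3a. Nnat had 4 counts in WT 1 and 0 in the KO libraries, Nap1l5 8 counts in WT 1 and 0, 4 and 7, and Peg10, a retrotransposon-derived gene needed in the placenta, 16 and 4, 0 and 4. Sgce, Zdbf2, Rasgrf1 and Kcnq1ot1 stood between 0.0753 and 0.337 TPM in WT 1. The level of Kcnq1ot1 is per length of an unspliced model of 93092 bases. Gnas, the gene of the stimulatory G protein alpha subunit, stood at 0.567 TPM in WT 1 and 0.758 ± 0.220 TPM (SD, n = 3) among the KO libraries, over exons shared with 2 other genes.

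**Figure D1:**
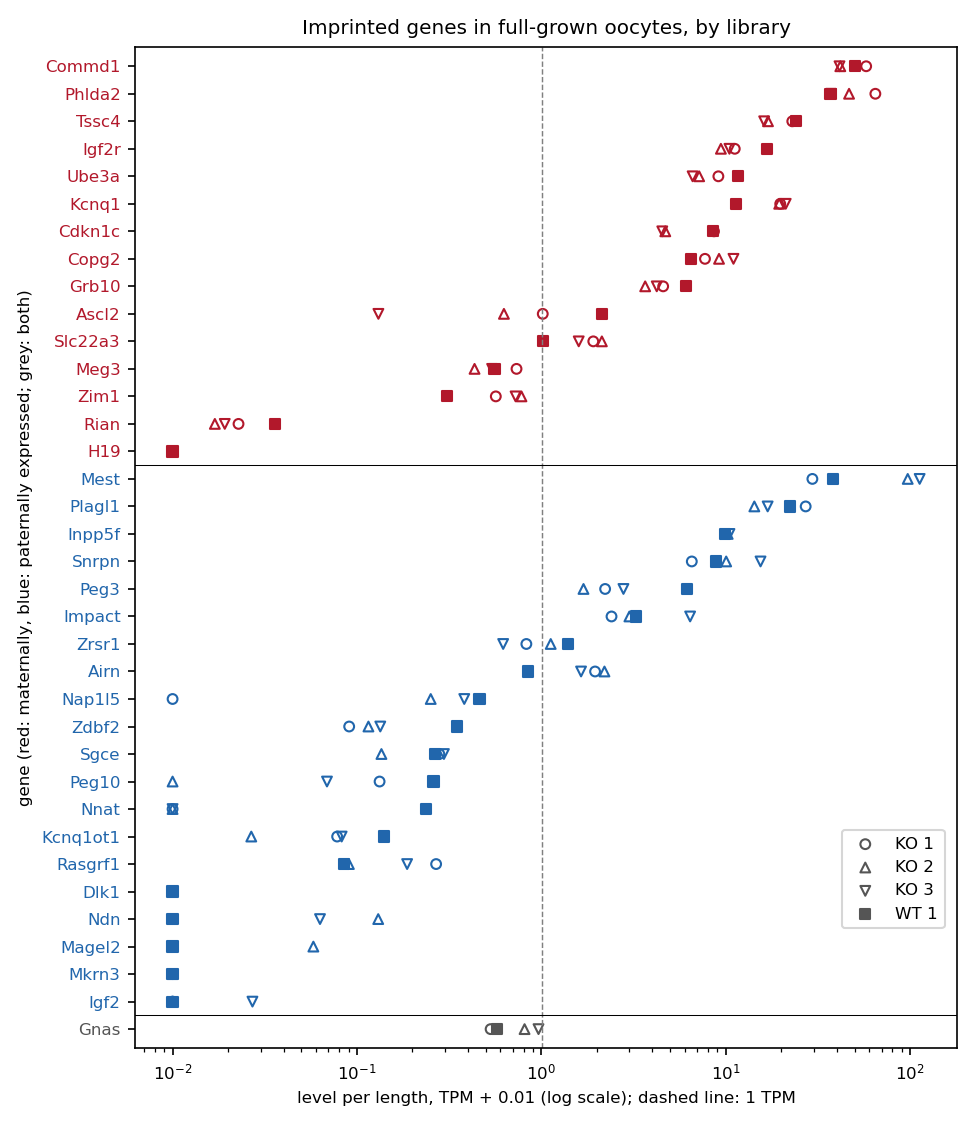
Level of each of the 36 genes in TPM plus 0.01 on a log axis, with WT 1 as filled squares and KO 1 to KO 3 as open symbols. Maternally expressed genes fill the upper block, with 11 of 15 at or right of the 1 TPM line in WT 1 against 7 of 20 paternally expressed genes, and genes with 0 counts sit at the left edge.

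Grouped by the germ line that places the methylation, those at 1 TPM or more all belonged to domains methylated in oocytes. None of the 7 genes whose control region is methylated in sperm reached 1 TPM in any of the 4 libraries, and 2 of them had 0 counts throughout. Of the 29 genes of domains methylated in oocytes, 18 reached 1 TPM in WT 1, 11 of the 12 maternally expressed and 7 of the 16 paternally expressed. Of all genes in the count table, 26.3% reached 1 TPM in WT 1. These shares are descriptions, because genes of a domain share a control region and are not independent.

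The median level of the maternally expressed genes was 6.45 TPM in WT 1 and 7.70, 4.69 and 4.51 TPM in KO 1, KO 2 and KO 3. That of the paternally expressed genes was 0.296 TPM in WT 1 and 0.191, 0.123 and 0.232 TPM. The gap between the medians, on the log2(TPM + 1) scale, was 2.52 in WT 1 and 2.46 ± 0.37 (SD, n = 3) among the KO libraries, so WT 1 lay within 1 SD of the KO mean. With genes left out that are imprinted in few tissues or through a single transcript (9 and 17 genes left) the gap was 1.31 and 0.72, and with a pseudocount of 0.1 TPM it was 4.05 and 4.34. The order of the classes held under each of these settings and the size of the gap did not.

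Summed levels gave a different picture in KO 2 and KO 3 because of Mest. The maternally expressed genes summed to 176 TPM in WT 1 and 210, 163 and 156 TPM in the KO libraries, and the paternally expressed genes to 92.4, 81.2, 140 and 168 TPM. The ratio of the sums was 1.91 in the WT library and 2.59, 1.16 and 0.927 in the KO libraries, in order. Mest alone made up 41.2% of the paternal sum in WT 1 and 36.3%, 69.2% and 67.0% of it in the KO libraries. Without Mest the ratios were 3.24, 4.07, 3.76 and 2.81, and WT 1 lay inside the KO range.

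**Figure D2:**
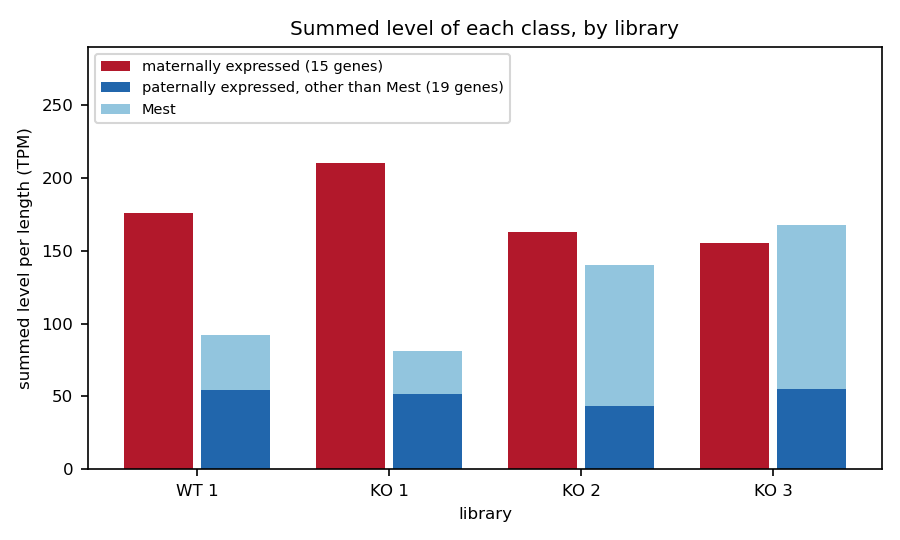
Summed level in TPM of the maternally expressed genes (red) and the paternally expressed genes (blue, with Mest in light blue on top) in each library, with the axis starting at 0. The light blue part grows from 38.0 TPM in WT 1 and 29.5 TPM in KO 1 to 97.0 and 113 TPM in KO 2 and KO 3, while the dark blue part stays between 43.3 and 55.3 TPM.

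No imprinted gene passed the test of KO against WT 1. Of the 36 genes, 27 passed the filter on low counts and 0 had an adjusted p under 0.05 in edgeR's quasi-likelihood test over all 17799 genes, of which 1.93% were called. The unadjusted p was under 0.05 for 4 genes, Peg3, Igf2r, Zdbf2 and Kcnq1, which is 14.8% of the 27 beside 13.3% of all genes. DESeq2 called 1, Peg3, and limma-voom 0. Maternally expressed genes had a median log2 fold change of -0.13 (5 above and 8 below 0), paternally expressed genes -0.21 (6 above and 7 below 0), and all genes tested 0.02. On CPM scaled by TMM factors, WT 1 lay outside the range of the KO libraries for 17 of the 27 genes, 63%, beside 58.3% of all genes. On TPM these were 18 genes, 66.7%, beside 58.1%, Phlda2 being the one added. The 9 genes not tested had at most 8 counts in each of the 4 libraries compared. The test takes the spread of WT oocytes from the KO libraries, since 1 WT library was compared.

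Peg3 had the lowest p of the set. Its log2 fold change was -1.5 (SE 0.37), 2.82-fold lower in KO oocytes, and it did not pass in edgeR (adjusted p = 0.0805). It passed with DESeq2 (adjusted p = 0.0197), where 3.78% of all genes were called, and without a filter on low counts (0.0104), where 3.07% were. It also passed without KO 1 (2.21e-07) and without KO 3 (0.0429), while over all alternatives the adjusted p ran up to 0.992, and to 0.284 over those with WT 1 alone. All 3 KO libraries lay below WT 1, from 1.68 to 2.78 TPM against 6.13 TPM, as they did on scaled CPM for 29.2% of all genes tested. Its domain partner Zim1 stood on the other side, at 0.296 TPM in WT 1 and 0.680 ± 0.111 TPM (SD, n = 3) among the KO libraries, with 1.17 (SE 0.63) on the log2 scale and an edgeR adjusted p of 0.472.

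The other genes of clear level had smaller differences. For Igf2r the log2 fold change was -0.72 (SE 0.31, adjusted p = 0.350 in edgeR) and for Ube3a -0.64 (SE 0.32, adjusted p = 0.431). Kcnq1 had 0.80 (SE 0.35, adjusted p = 0.360) and Mest 1.03 (SE 0.61, adjusted p = 0.512). The SE of Mest was wide because its KO libraries ranged from 29.5 to 113 TPM. Commd1 (-0.13, SE 0.33), Phlda2 (0.39, SE 0.42), Tssc4 (-0.40, SE 0.39), Plagl1 (-0.23, SE 0.39), Snrpn (0.25, SE 0.51) and Inpp5f (0.03, SE 0.33) had values within about 1 SE of 0. Among genes of low level, Zdbf2 had -1.70 (SE 0.71, adjusted p = 0.335), Ascl2 -1.96 (SE 1.02, adjusted p = 0.449) and Airn 1.18 (SE 0.57, adjusted p = 0.410). A p that misses the threshold does not show equal levels.

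**Figure D3:**
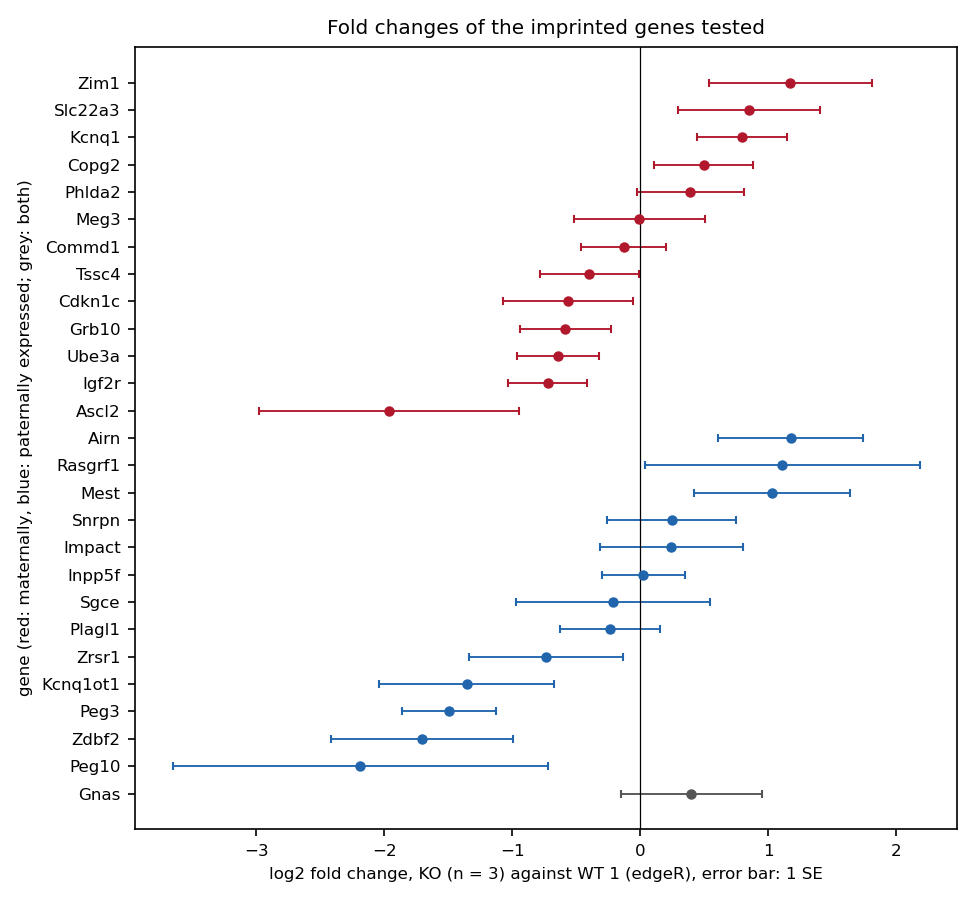
Log2 fold change of the 27 tested genes, KO (n = 3) against WT 1, with bars of 1 SE. Values lie on both sides of 0 in either class, from -2.19 for Peg10 to 1.18 for Airn, and 0 of the genes passed an adjusted p of 0.05.

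Leaving out KO 1 changed many of these calls. Without it 8 of the 27 genes passed, 29.6%, where 28.1% of all genes passed. Mest (log2 fold change 1.43) and Kcnq1 (0.81) were then higher in KO 2 and KO 3 than in WT 1. Peg3, Igf2r, Ube3a, Plagl1, Kcnq1ot1 and Ascl2 were lower, with log2 fold changes of -1.49, -0.78, -0.79, -0.55, -1.57 and -2.54. The spread in this fit comes from KO 2 and KO 3 alone, so its calls leave out the spread that KO 1 adds. On the same CPM, WT 1 and KO 1 stood together on the same side of KO 2 and KO 3 for 16 of the 27 genes, 59.3%, beside 54.0% of all genes. The share called without KO 1 was thus near that of all genes.

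Partners within a domain were compared as ratios inside each library, which do not depend on scaling between libraries. The ratio of Zim1 to Peg3 was 0.0484 in WT 1 and 0.252, 0.458 and 0.257 in the KO libraries, which is 5.21 to 9.47 times the WT value. The ratio of Igf2r to Airn was 20.1 in WT 1 and 5.75, 4.30 and 6.41, so that WT 1 was 3.13 to 4.67 times higher. In both domains the KO libraries did not overlap WT 1. For single genes WT 1 lay outside the KO range on TPM in 58.1% of all genes tested, and no such share was computed for other gene pairs. Counts were low for Zim1, at 23 in WT 1 and 22, 56 and 59 in the KO libraries. Airn had 37 and 44, 91 and 77. The ratio of Kcnq1 to Kcnq1ot1 was 87.4 in WT 1 and 290, 1165 and 291 in the KO libraries, where Kcnq1ot1 had 31, 14 and 69 counts, against 116 in the WT library. The ratios of Commd1 to Zrsr1 were 36.2 and 70.5, 37.5 and 67.8, with KO 2 close to WT 1. For Ube3a to Snrpn (1.32 in WT 1, 0.428 to 1.39 in KO) and Copg2 to Mest (0.169 in WT 1, 0.0947 to 0.261 in KO) WT 1 lay inside the KO range. An exact permutation test of 1 against 3 libraries cannot give a p below 0.25, so these ratios carry no test, and neither partner of any pair passed alone in edgeR.

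**Figure D4:**
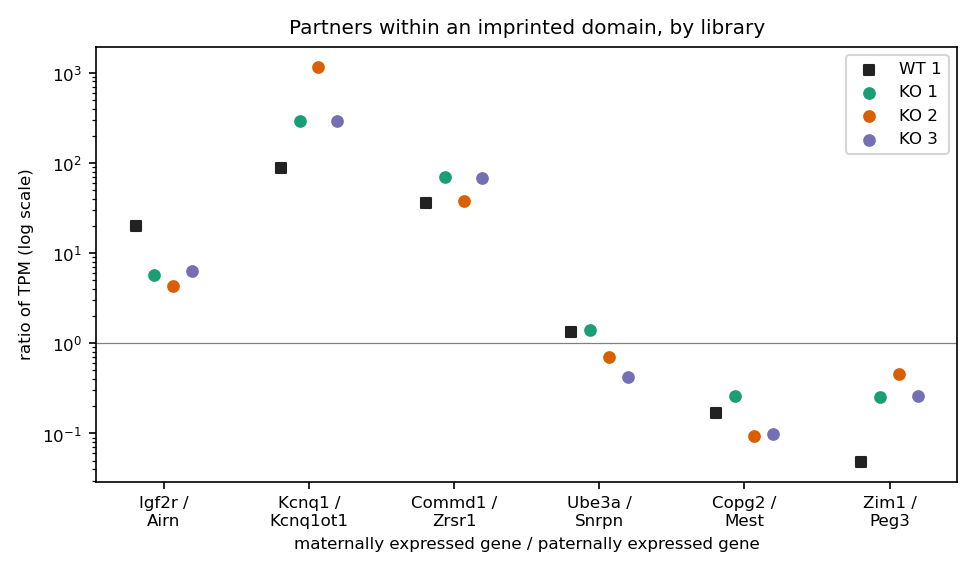
Ratio of TPM of a maternally to a paternally expressed gene of the same domain in each library, on a log axis. WT 1 (squares) lies above the KO libraries (circles) for Igf2r and Airn and below them for Kcnq1 and Kcnq1ot1, Zim1 and Peg3, and, narrowly, Commd1 and Zrsr1.

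Among genes tied to writing, keeping or removing imprints none passed the test against WT 1. The list includes Tet1, Tet2 and Tet3, whose enzymes act in removing DNA methylation. Of 23 such genes 20 stood at 1 TPM or more in WT 1, beside 26.3% of all genes, and their levels ran from 0.129 TPM for Ctcfl, a paralog of Ctcf, upward. Of the 23, 22 were tested, and 0 were called higher or lower in edgeR, with an unadjusted p under 0.05 for 2 and a median log2 fold change of -0.25. Dppa3, whose protein shields maternal methylation in the zygote, was the highest at 11668 TPM in WT 1 and 17627, 15744 and 13360 TPM in the KO libraries. Zfp57, which keeps imprints through the motif marked above, stood at 927 TPM and at 840, 1432 and 1447 TPM. The maternal-effect gene Nlrp5 stood at 751 TPM in WT 1 and 875 ± 149 TPM (SD, n = 3) among the KO libraries. The maintenance methyltransferase gene Dnmt1 stood at 451 TPM in WT 1 and at 457, 300 and 282 TPM in KO 1, KO 2 and KO 3, so WT 1 lay inside the KO range. The lowest p belonged to Ehmt2, a gene of the H3K9 methyltransferase G9a, at 4.25 TPM in WT 1 and 1.48 ± 0.356 TPM (edgeR adjusted p = 0.155), and to Dnmt3a, the de novo methyltransferase gene of the oocyte, at 74.0 and 44.7 ± 4.46 TPM (adjusted p = 0.292). Without KO 1 the median log2 fold change of the list was -0.40, with the spread taken from KO 2 and KO 3 alone. Dnmt3l and Zfp57 were then higher in KO 2 and KO 3 than in WT 1. Among the lower ones were Dnmt1, Dnmt3a, Uhrf1, Trim28, Ehmt1, Ehmt2 and Tet3. In KO 1 itself, Dnmt3a (47.4 TPM) and Ehmt2 (1.41 TPM) were also below WT 1, whereas Dnmt1 was slightly above it and Zfp57 below it. Tet3 stood at 93.8 TPM in KO 1 and 94.3 TPM in WT 1.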

How the data were processed

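Full-grown oocytes were lysed and their poly(A) RNA made into Smart-seq2 cDNA with oligo(dT) primers, per the labels' protocols, so tail length can bear on capture, which was not tested. Trim Galore 0.6.7, STAR 2.7.10a, featureCounts 2.0.2, DESeq2 and the mm10 build are named, per the submitters' processing notes. The table holds the authors' raw counts of each gene, with an exon length for each, per the file headers. The sources used here give no annotation release or strand setting; 35 of the 36 genes had the same span in GENCODE M21.

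Sample titles gave the groups and replicate numbers. TPM was computed from counts and exon lengths over all genes, with limits of 1 and 10 TPM. KO was compared with WT 1 by edgeR 4.0.16 (R 4.3.3) with TMM factors, filterByExpr, a robust quasi-likelihood fit and p-values adjusted by Benjamini-Hochberg across the 17799 genes, at 0.05. The SE is the log2 fold change over the square root of F. The steps were tested on simulated data. DESeq2 1.42.0, limma-voom (limma 3.58.1), other scalings and filters, both WT libraries, a replicate block and leaving out each KO library were alternatives. The members, lists and classes were chosen with earlier results of these data known. Genes of 10 TPM or more in WT 1 or the KO mean were given by library, with the gene of lowest p; of other lists, those that passed or else the 2 of lowest p and, for lists of imprinting, the 4 of highest level in WT 1. The range counts on TPM and the promoter counts with overlapping windows taken once were added after seeing the data. So were the counts and medians of the lists without KO 1. Floors reflect counting error alone, because reads of amplified cDNA are not separate molecules.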

Additional observations from a re-analysis of the deposited data

Results flagged for a closer look

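The column of WT 2 entered no comparison, and in it 13 of the imprinted genes had more than 3 counts and stood above WT 1, which flagged them as signal in data not otherwise used. Slc22a3 stood at 373 CPM and Rasgrf1 at 259 CPM in WT 2. Zdbf2 stood at 75.8 CPM, Peg3 at 71.6, Grb10 at 39.9 and Gnas at 16.9 CPM. Igf2 stood at 9.77 CPM, Zrsr1 at 6.87, Zim1 and Meg3 at 4.23 each, Sgce at 1.58, and Nnat and Nap1l5 at 1.06 CPM each. Dlk1, with 1 count, also stood above its 0 in WT 1. In the same column 17 of the 36 genes had 0 counts, among them Mest, Plagl1 and Phlda2. WT 2 did not follow the gene models, and whether these counts belong to the named genes was not tested.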

How the results depend on the processing

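Against 344 genes called in all, 868 were called without a filter on low counts, 126 at a mean of at least 5 CPM, 672 with DESeq2, and 425 to 4923 when a KO library was left out. Of the imprinted genes 1 was called without a filter, 1 with DESeq2, and 0 to 8 when a KO library was left out. With both WT libraries 0 genes were called, without and with a replicate block. A block for WT 1 alone is not defined, since it shares a single number with the KO group, and whether numbers pair the samples could not be checked with WT 2. The median log2 fold change of maternally expressed genes was then 0.31 and, with the block, 2.57, and that of paternally expressed genes 0.22 and 1.72; at a mean of at least 5 CPM they were -0.43 and 0.10, and without a filter -0.26 and -0.086. When a KO library was left out these medians ran from -0.31 to -0.03 and from -0.34 to 0.0042, and the class gap in KO oocytes from 2.25 to 2.61. The gap was 4.05 in WT 1 and 4.34 in KO oocytes with a pseudocount of 0.1 TPM, and 1.31 and 0.72 without genes imprinted in few tissues or transcripts.

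Without and with the replicate block, both WT libraries reversed Igf2r (0.27 and 2.72), Slc22a3 (-5.55 and -2.74), Plagl1 (0.77 and 4.56), Ube3a (0.36 and 4.43), Cdkn1c (0.42 and 2.57), Tssc4 (0.59 and 3.38), Meg3 (0.086 and 0.10), Gnas (-1.28 and -1.04), Commd1 (0.31 and 0.48) and Rasgrf1 (-7.17 and -3.76). Zim1 (-0.0050) reversed without the block, and Kcnq1ot1 (0.86) and Ascl2 (0.46) with it. Inpp5f was -0.012 by library size alone and -0.0072 at a mean of at least 5 CPM. When a KO library was left out, Snrpn ran from -0.085 (without KO 3) to 0.49, Impact from -0.27 (without KO 3) to 0.49, Sgce from -0.42 to 0.076 (without KO 2), and Meg3 from -0.23 to 0.14 (without KO 2), with 0.045 without KO 3. The cause was not tested. Leaving out WT 1 was not run, since WT 2 did not follow the gene models and WT 3 was not analysed here. The 9 genes not tested had too few counts at this depth for a fit, and absence of a transcript is not shown for them.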

Other observations

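Imprinted genes outside the 36 were read from a list of 44 further symbols, of which 43 were in the table, 19 reached 1 TPM in WT 1 and 27 were tested. None was called in edgeR, 2 had an unadjusted p below 0.05, and the median log2 fold change was 0.09. The highest were Th, the tyrosine hydroxylase gene that lies in the Kcnq1 region, at 166 TPM in WT 1 and 190 ± 18.8 TPM (SD, n = 3) in KO oocytes, and Nap1l4, a nucleosome assembly protein gene, at 115 TPM in WT 1 and 101 ± 20.3 TPM. Blcap stood at 102 and 139 ± 17.1 TPM and H13, a signal peptide peptidase gene, at 83.9 and 91.2 ± 15.1 TPM. All 4 were above every one of the 15 maternally expressed genes described above in WT 1.

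The lowest p of that list belonged to Atp10a, a phospholipid-transporting ATPase gene near Ube3a, at 2.57 TPM in WT 1 and 5.19, 8.57 and 6.63 TPM in the KO libraries (edgeR adjusted p = 0.216), and to Gab1, a docking adaptor gene, at 2.29 and 0.804, 0.962 and 0.886 TPM (adjusted p = 0.25). On CPM scaled by TMM factors WT 1 lay outside the KO range for 15 of the 27, 55.6% beside 58.3% of all genes. Slc22a2 was near the floor, with 0 counts in WT 1 and KO 1, 22 in KO 2 and 6 in KO 3. Without KO 1, 5 of 26 passed, 19.2% beside 28.1% of all genes, with Atp10a, Blcap and Slc22a2 higher and Gab1 and Ins2 lower. The adjusted p was then 3.58e-05 for Atp10a and 0.0247 for Gab1.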
